A study of Mus musculus with 11 samples.

Results

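The 10 genes described here encode the hormones and granule proteins by which enteroendocrine cells are recognized: the granins *Chga* and *Chgb* and the peptide precursors *Gip*, *Sct*, *Cck*, *Sst*, *Gcg*, *Pyy*, *Nts* and *Tac1*. They were taken by gene symbol, and each had 1 entry among the 45777 genes of the deposited table. The libraries came from BALB/c mice, female or male according to the labels, that were treated at 8 to 10 weeks of age with 62.5 mg of cream a day. The cream was 5% imiquimod (IMQ, a Toll-like receptor 7 agonist sold as Aldara, which causes psoriasis-like skin inflammation in mice) or the Vaseline vehicle. By the labels it was spread for 5 to 8 days on back and right ear after shaving, whereas the methods name the back alone and a shorter longest course. RNA was sequenced from small intestine of 3 control libraries (numbered 7, 8 and 9) and 2 IMQ libraries (10 and 11), and from skin of 3 control libraries (1, 2 and 3) and 3 IMQ libraries (4, 5 and 6). No source states which part of the small intestine was taken, which libraries came from the same mouse or whether replicates were separate mice, so a p-value here measures the spread between these libraries.

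Enteroendocrine cells are scattered, hormone-secreting cells of the intestinal epithelium that sense nutrients in the lumen and release peptides toward blood, nerves and neighboring cells. Each cell makes a limited set of hormones, and the set depends on the position along the gut: GIP, secretin and cholecystokinin are made mainly in the proximal small intestine, and peptide YY, neurotensin and the products of proglucagon increasingly toward the ileum and colon. Granins fill the secretory granules of all these cells, and they are also made by neurons and other endocrine cells. In RNA from whole tissue, fewer cells of a type and less RNA per cell cannot be told apart.

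The stretches of 250 bases before an annotated transcription start are given below for 5 genes. For *Sst* this start lies within the gene span printed further below, and the *Gip* window reaches past the first base of its span. The levels of the 5 genes moved together or in opposite directions across the small intestine libraries. By normalized count, *Chgb*, *Gip* and *Sst* ordered the 5 libraries identically, and *Cck* and *Pyy* ordered them in nearly opposite ways. These genes were chosen after their values had been seen, and the share of all genes with such orders was not counted. The sequences are from RefSeq (GRCm38.p6), 5′ to 3′ on the strand of the gene, and capitals mark TGACGTCA (the cAMP response element) or its core TGACG on either strand.
Chgb (chr2:132781392-132781641, + strand): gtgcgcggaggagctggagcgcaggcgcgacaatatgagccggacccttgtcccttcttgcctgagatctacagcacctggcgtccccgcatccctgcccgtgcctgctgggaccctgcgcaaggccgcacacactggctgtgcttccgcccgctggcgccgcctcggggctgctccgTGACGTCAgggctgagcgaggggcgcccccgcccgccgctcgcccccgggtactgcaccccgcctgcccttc
Gip (chr11:96024295-96024544, + strand): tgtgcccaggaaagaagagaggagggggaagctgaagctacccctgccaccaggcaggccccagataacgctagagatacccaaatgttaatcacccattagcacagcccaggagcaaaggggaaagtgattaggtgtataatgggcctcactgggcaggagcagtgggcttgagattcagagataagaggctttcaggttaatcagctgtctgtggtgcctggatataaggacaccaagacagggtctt
Sst (chr16:23890845-23891094, - strand): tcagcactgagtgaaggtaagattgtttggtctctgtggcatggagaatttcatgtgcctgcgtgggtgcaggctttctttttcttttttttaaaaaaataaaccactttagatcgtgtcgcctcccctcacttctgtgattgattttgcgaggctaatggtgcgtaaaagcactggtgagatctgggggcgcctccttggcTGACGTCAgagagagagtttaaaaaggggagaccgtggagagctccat
Cck (chr9:121495695-121495944, - strand): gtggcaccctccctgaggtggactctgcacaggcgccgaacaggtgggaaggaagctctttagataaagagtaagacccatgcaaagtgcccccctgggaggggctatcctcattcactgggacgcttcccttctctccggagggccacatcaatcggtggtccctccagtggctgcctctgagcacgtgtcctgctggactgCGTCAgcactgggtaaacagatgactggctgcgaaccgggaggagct
Pyy (chr11:102107833-102108082, - strand): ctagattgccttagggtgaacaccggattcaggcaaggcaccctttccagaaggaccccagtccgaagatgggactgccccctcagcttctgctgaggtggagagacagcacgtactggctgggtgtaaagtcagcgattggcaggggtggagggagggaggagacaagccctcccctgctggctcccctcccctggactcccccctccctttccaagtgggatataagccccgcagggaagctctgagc

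The 10 genes had 11 such windows, because *Pyy* has 2 overlapping ones. TGACGTCA was present in 2 of the 11, those of *Chgb* and *Sst*, against 1.55% of all 32851 windows of this length. The core TGACG, which also counts where it lies within TGACGTCA, was found in 6 of 11 windows (17.8% of all windows), and TATAAA in 2 of 11, those of *Gcg* and *Sct* (12.4% of all). The E-box CANNTG, the letters bound by basic helix-loop-helix factors such as NEUROG3 and NEUROD1, was present in 11 of 11 windows and in 66.2% of all. Both strands were searched, and a match is a description of the letters only. The windows of *Gip* and *Pyy* therefore carry no capitals, while those of *Chgb* and *Sst* share the full element. A link between these letters and the order of libraries was not tested.

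Total counts were between 44995414 and 58526384 per library, so that sampling noise was small for the hormone genes of the small intestine, which had 59 to 7723 counts each. In the small intestine, the defining pancreatic genes *Ins1*, *Ins2*, *Pnlip*, *Prss2* and *Amy2a5*, the gastric genes *Gkn1*, *Gkn2*, *Tff1* and *Gast* and the colonic genes *Car1* and *Hoxb13* were at 0 in all 5 libraries. One library stood apart among the skin samples. Over 19 genes of the intestinal epithelial, goblet and Paneth lists, skin control 2 held a median of 1.01% of the control small intestine level, and the medians of the other 5 skin libraries lay between 0% and 0.0408%. The list includes *Epcam*, *Fcgbp* and *Lyz1*, which had counts in every skin library, and *Spdef*, which was at 0 in control 2. *Cdh17*, *Krt20*, *Muc2*, *Clca1* and *Itln1* also had counts in every skin library. Outside control 2 their levels were 0.127% or less of the control small intestine level. Skin results are given without that library where they rest on it.

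All 10 genes were detected in all 5 small intestine libraries. On the scale of fragments per kilobase of transcript and library size (FPKM), which allows levels of different genes to be compared, *Gip* was the highest with a mean of 105 over the 5 libraries, followed by *Chgb* at 46.0, *Sst* at 38.4 and *Chga* at 32.0. *Sct* (28.4), *Gcg* (25.6), *Cck* (24.1) and *Nts* (22.1) formed a middle group, and *Tac1* (7.07) and *Pyy* (6.80) were the lowest. The range of *Gip* did not overlap that of *Chgb*, the next gene. For each further neighbor in this order the ranges overlapped, although *Chgb* exceeded *Sst*, and *Nts* exceeded *Tac1*, in 5 of 5 libraries. Among the 19965 genes tested, *Gip* ranked 651st by mean FPKM and *Pyy* 7273rd. The genes also differed in how much they varied: the highest library exceeded the lowest 1.497-fold for *Sct*, but 3.07-fold for *Nts*, 3.18-fold for *Cck* and 6.90-fold for *Pyy*.

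**Figure D1:**
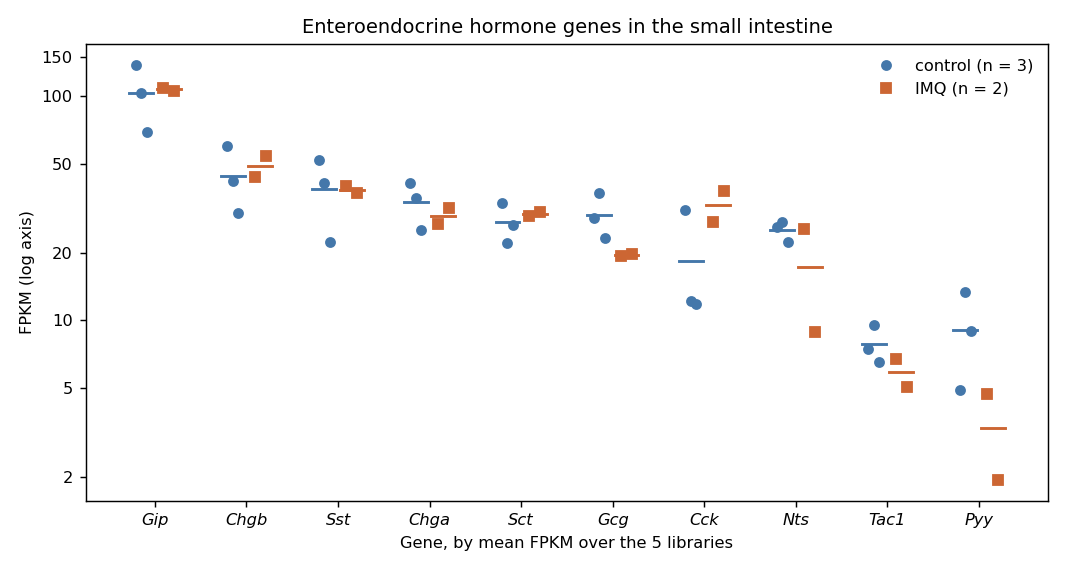
Level of each hormone gene in the small intestine, in FPKM on a log axis, with 1 point per library (circles, 3 control; squares, 2 IMQ) and a line at each group mean. *Gip* lies above the other genes, with a lowest value of 69.5 FPKM, and *Pyy* spans 1.95 to 13.4 FPKM.

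To ask whether inflammation of the skin was accompanied by a change of hormone expression in the gut, IMQ and control libraries were compared with the quasi-likelihood test of edgeR. After Benjamini-Hochberg adjustment over all 19965 genes, 0 of the 10 genes were called at an adjusted p under 0.05, while 588 genes of the table were called, a background of 2.95%. At an unadjusted p under 0.05 there were 2 of the 10, *Gcg* and *Pyy*, against 12.3% of all genes tested. DESeq2 called 1 of the 10, *Pyy*, against 6.04% of all genes. Counts of list genes below are to be read against the same shares. The median log2 fold change of the 10 genes was -0.06, against -0.02 over all genes tested, and 5 genes had a positive and 5 a negative estimate. The median size of the log2 fold change, regardless of sign, was 0.28 for the 10 genes and 0.21 for all genes. The IMQ and control values did not overlap for 3 of the 10, *Gcg*, *Pyy* and *Tac1*, each lower with IMQ, and 29.0% of all genes tested were separated in this way in either direction.

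**Figure D2:**
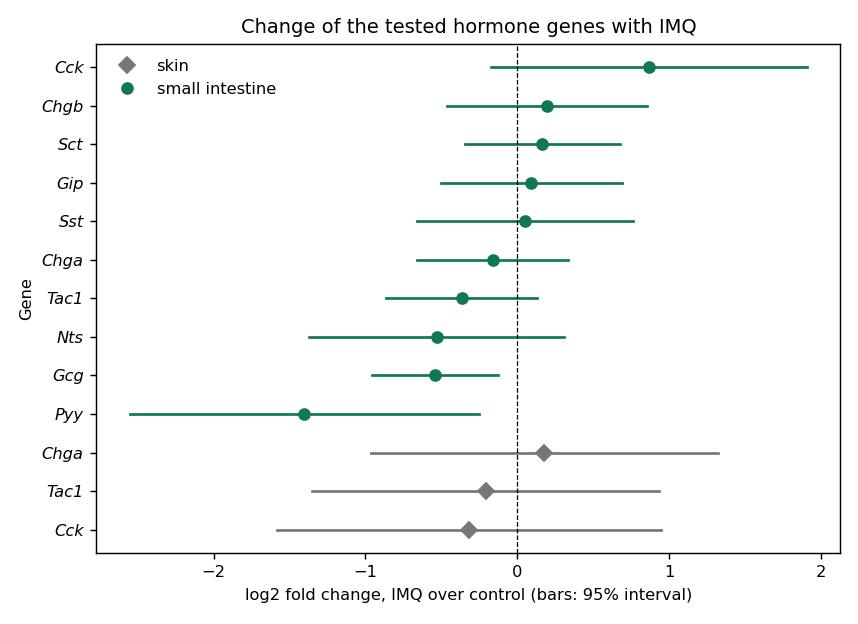
Log2 fold change of IMQ over control (points) with its 95% interval (bars), for the 10 genes tested in the small intestine (circles) and the 3 tested in skin (diamonds). In the small intestine, the intervals of *Gcg* and *Pyy* lie below 0 before adjustment over all genes, and the other 8 include 0.

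The granins, acidic proteins that help to form the secretory granule and are cleaved into peptides, were near their control levels. *Chga* (chr12:102554941-102565027, + strand) measured 41.1, 35.3 and 25.2 FPKM in control libraries 7, 8 and 9 and 26.9 and 31.6 FPKM in IMQ libraries 10 and 11. The IMQ values lay within the control range. Its log2 fold change was -0.16 (SE 0.21, 95% interval -0.66 to 0.34, edgeR adjusted p = 0.856). *Chgb* (chr2:132781642-132795079, + strand) was at 60.045, 42.0 and 30.3 FPKM in control and at 43.5 and 54.1 FPKM in IMQ libraries, with a log2 fold change of 0.20 (SE 0.28, edgeR adjusted p = 0.871). Control library 7 was the highest and control library 9 the lowest of the 5 for both granins. By Pearson correlation of log2 normalized counts over the 5 libraries, the genes most like *Chga* were *2310009A05Rik* (0.9996), *Stard10*, *Ppan*, *Rnf187* and *Cenpv* (0.9936), but 114 of 15036 genes reached 0.95 over so few libraries, and this likeness is given as a description.

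Among the hormones made mainly in the proximal intestine, *Gip* and *Sct* differed less between the groups than between control libraries, and *Cck* had the largest positive estimate of the 10 genes. *Gip* (chr11:96024532-96030831, + strand), the precursor of the incretin GIP that raises insulin release after a meal, measured 138, 104 and 69.5 FPKM in control and 109 and 105 FPKM in IMQ libraries. Its log2 fold change was 0.09 (95% interval -0.50 to 0.69). *Sct* (chr7:141278329-141279174, - strand) encodes secretin, which stimulates bicarbonate secretion by the pancreas. It measured 33.3, 22.2 and 26.7 FPKM in control and 29.2 and 30.6 FPKM in IMQ libraries, with a log2 fold change of 0.16 (95% interval -0.34 to 0.67). Both IMQ values lay inside the control range.

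*Cck* (chr9:121489824-121495694, - strand) encodes cholecystokinin, which contracts the gallbladder and promotes satiety. It measured 31.2, 12.2 and 11.9 FPKM in control libraries 7, 8 and 9 and 27.5 and 37.7 FPKM in the IMQ libraries. Control library 7 thus lay between the IMQ libraries, and control libraries 8 and 9 were the lowest. The log2 fold change was 0.86 (SE 0.44, 95% interval -0.18 to 1.91, edgeR adjusted p = 0.520). Without control library 7 it was 1.51 (adjusted p = 0.0120), the only one of the fits run here that called *Cck* in the small intestine.

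*Sst* (chr16:23889573-23891342, - strand) encodes somatostatin, which inhibits the release of many other gut hormones and is made by D cells and by enteric neurons. It measured 52.1, 40.9 and 22.4 FPKM in control and 39.5 and 37.1 FPKM in IMQ libraries. The control libraries lay on both sides of the IMQ libraries, and the log2 fold change was 0.05 (95% interval -0.66 to 0.76, edgeR adjusted p = 0.978). Its sign turned with upper-quartile scaling, to -0.0093.

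*Gcg* and *Pyy*, made by the L cell, the enteroendocrine type of the distal gut, were lower in both IMQ libraries than in any control library. *Nts*, which also increases toward the ileum, was not, with IMQ library 10 at 25.5 FPKM and controls at 22.3 to 27.4 FPKM. Of all genes tested, 29.0% were separated in either direction. *Gcg* (chr2:62474530-62483653, - strand), whose precursor yields the glucagon-like peptides in the intestine, measured 28.6, 37.1 and 23.2 FPKM in control and 19.4 and 19.8 FPKM in IMQ libraries. The log2 fold change was -0.54 (SE 0.18, 95% interval -0.96 to -0.13). Its p was 0.0173 before and 0.234 after adjustment over all genes with edgeR. *Pyy* (chr11:102106676-102107832, - strand), the precursor of the satiety peptide YY, measured 4.91, 13.4 and 8.99 FPKM in control and 4.71 and 1.95 FPKM in IMQ libraries. Control library 7 and IMQ library 10 were close to each other. The log2 fold change was -1.40 (SE 0.49, 95% interval -2.55 to -0.25), with a p of 0.0232 before and 0.269 after adjustment with edgeR. With DESeq2 the adjusted p of *Pyy* was 0.0440, and leaving out 1 library at a time gave log2 fold changes between -2.08 and -0.95, none of them called.

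*Nts* and *Tac1* were lowest in IMQ library 11. *Nts* (chr10:102481756-102490418, - strand), the precursor of neurotensin, a peptide that promotes fat absorption and alters motility, measured 26.2, 27.4 and 22.3 FPKM in control libraries. IMQ library 10 lay among them at 25.5 FPKM, whereas library 11 was at 8.92 FPKM. The log2 fold change of -0.53 (SE 0.36, edgeR adjusted p = 0.661) became 0.0043 without library 11 and -1.39 without library 10, the latter called at an adjusted p of 0.0289 with library 11 as the lone IMQ library. *Tac1* (chr6:7555061-7562978, + strand) encodes substance P and neurokinin A, made by enterochromaffin cells and by enteric neurons. It measured 7.46, 9.54 and 6.55 FPKM in control and 6.71 and 5.07 FPKM in IMQ libraries. In normalized counts, IMQ library 10 was just below control library 9 (398 against 404), and the log2 fold change was -0.37 (SE 0.21, edgeR adjusted p = 0.584).

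Library 11 was also the lowest of the 5 libraries for 9 of 11 enteric neuron and 4 of 4 enteric glia markers. It was lowest as well for 5 of 5 smooth muscle markers and for 3 of the 10 hormone genes (*Pyy*, *Nts* and *Tac1*). Here and below, the share of all genes tested that were lowest in library 11 was not counted. The neuron markers that differed were *Ret*, which was highest in library 11 (539 normalized counts, against 344 to 461), and *Nefl*, which was lower in libraries 7 and 9. The summed normalized count of the 11 neuron markers was 1724 in library 11, against 3636 in library 10 and 2880 to 3888 in control libraries. *Vip* gave the largest part of it except in library 11, where *Ret* did (539 against 454 for *Vip*). For 4 enteric glia markers the sum was 154 in library 11, 323 in library 10 and 270 to 358 in control. For 5 smooth muscle markers it was 23057 in library 11, 72045 in library 10 and 40960 to 62078 in control. *Vip*, a peptide of enteric neurons, measured 13.5, 19.1 and 16.9 FPKM in control, 16.5 FPKM in library 10 and 4.73 FPKM in library 11. The part of these markers in the low values of *Nts* and *Tac1* was not tested.

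The ratio of *Cck* to *Pyy* was formed after their values had been seen and describes these 2 genes only. It was 6.36, 0.905 and 1.32 in control libraries 7, 8 and 9 and 5.83 and 19.4 in IMQ libraries 10 and 11, so control library 7 was above IMQ library 10. The corresponding ratio of *Gip* to *Gcg* was 4.83, 2.79 and 2.99 in control and 5.61 and 5.32 in IMQ libraries. The sum of the 8 peptide hormones was 322, 266 and 192 FPKM in control and 261 and 247 FPKM in IMQ libraries, so the IMQ sums lay within the control range. *Gip*, the highest hormone gene, took between 36.3% and 42.9% of that sum, and *Pyy* between 0.789% and 5.04%.

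Some markers of position along the intestine shared the order of libraries of *Pyy* or its reverse. *Pyy* ordered the libraries from high to low as 8, 9, 7, 10 and 11, and the distal transcription factor gene *Osr2* had the same order. *Apoa4* and *Fabp1*, which serve fat transport in the proximal enterocyte, and the proximal transcription factor gene *Onecut2* had the reverse order, 11, 10, 7, 9 and 8. These were 1 of the 6 distal and 3 of the 8 proximal genes, singled out after their values had been seen, and the other distal and proximal genes followed neither order: proximal *Lct* was highest in control 7, *Cybrd1* lowest in IMQ 11, and distal *Fabp6* in IMQ 10 (42.7 normalized counts) lay among the controls (31.4 to 47.7). *Cck* followed that reverse order in normalized counts except that libraries 7 and 10 changed places. *Onecut2* had normalized counts of 3031, 689 and 1527 in control and of 3939 and 5267 in IMQ libraries. *Osr2* measured 27.1, 42.7 and 28.3 FPKM in control and 16.6 and 6.49 FPKM in IMQ libraries.

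Over the whole list of 8 proximal markers the summed normalized count was 232560 to 599180 in control and 894150 to 1362900 in IMQ libraries, most of it from *Apoa4* and *Fabp1*. Over the 6 distal markers it was 14675 to 18766 in control and 10175 to 12014 in IMQ libraries. With edgeR neither list had a gene called with IMQ, with 3 proximal (*Apoa4*, *Fabp1* and *Onecut2*) and 2 distal genes (*Osr2* and *Slc51a*) at an unadjusted p under 0.05. DESeq2 called *Fabp1* among the proximal and *Osr2* among the distal genes. Of the 8 proximal genes 5 had positive and 3 negative log2 fold changes, and the 5 distal genes tested were negative, with a median of -0.65. The part of position in the values of *Cck*, *Pyy* and *Gcg* was not tested.

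**Figure D3:**
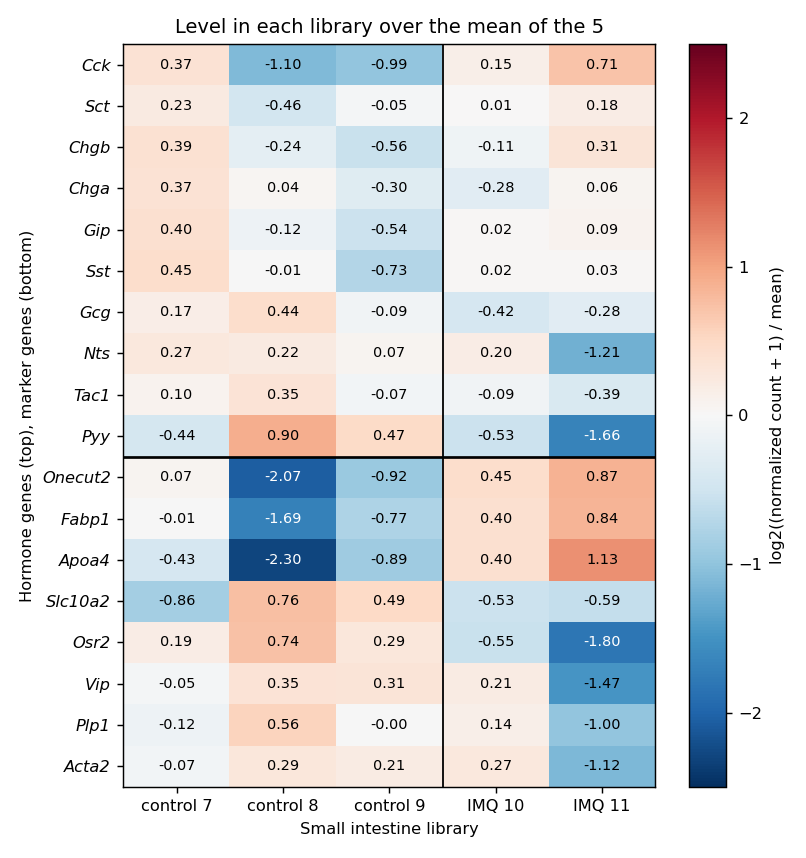
Log2 of the normalized count (plus 1) in each small intestine library over the mean of the 5 libraries, for the 10 hormone genes (above the line) and for markers of the proximal and distal intestine, nerve, glia and muscle (below). *Pyy* runs from 0.90 in control library 8 to -1.66 in IMQ library 11, and *Onecut2* from -2.07 to 0.87 in the same libraries.

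The remaining genes of the enteroendocrine pathway gave no call with edgeR in the small intestine. Of 6 further hormone genes, 3 were tested and 0 were called by edgeR or DESeq2 or at an unadjusted p under 0.05: *Ghrl* (ghrelin) had a log2 fold change of 0.52 and *Iapp* (amylin) of -1.25. Of 5 genes of serotonin and histamine synthesis and storage, 0 were called, likewise by either tool and without adjustment. *Tph1*, the rate-limiting enzyme of serotonin synthesis in the gut, measured 3.31, 1.89 and 1.34 FPKM in control and 2.44 and 2.96 FPKM in IMQ libraries, a log2 fold change of 0.36. *Hdc*, the histidine decarboxylase, had a log2 fold change of 0.33.

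The 16 genes of prohormone processing and granules had 0 calls with edgeR and 2 at an unadjusted p under 0.05 (*Vgf* and *Pcsk1*), with 14 negative and 2 positive estimates and a median log2 fold change of -0.30, against -0.02 over all genes. Library 11 was the lowest of the 5 for 13 of the 16, and the summed normalized count was 6620 there, against 9941 in library 10 and 8779 to 10875 in control. The sum in library 10 thus lay in the control range, and library 11 was also the one with low nerve and muscle markers, whose part in these values was not tested. *Resp18*, a granule protein, had a log2 fold change of -0.54. *Vgf*, a granin-like neuropeptide precursor, had the smallest adjusted p of the list and the opposite sign: 0.118, 0.279 and 0.0884 FPKM in control against 0.756 and 0.491 FPKM in IMQ libraries. The 2 groups did not overlap for *Vgf*, and its log2 fold change was 1.84 (SE 0.45, edgeR adjusted p = 0.0995). DESeq2 called *Vgf* alone of this list, with an adjusted p of 0.00777. Normalized counts of *Vgf* were low, between 13.9 and 111.

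The 18 transcription factors of the lineage had 0 calls with edgeR or DESeq2 and 1, *Foxa1*, at an unadjusted p under 0.05, with 12 negative and 6 positive estimates. Their summed normalized count, of which *Atoh1* and *Foxa1* gave the largest parts, did not overlap between the groups. It was 3014 to 3709 in control and 2648 to 2769 in IMQ libraries. Of the single genes, 2 of 18 were lower in both IMQ libraries than in any control library, again *Atoh1* and *Foxa1*. *Atoh1* had normalized counts of 781 to 1033 in control and of 693 and 683 in IMQ libraries. *Foxa1* had 577 to 713 in control and 508 and 445 in IMQ libraries. The other genes of the list overlapped between the groups. Among all genes tested, 29.0% were separated in either direction. *Neurog3*, which commits crypt progenitors to the endocrine fate, measured 1.46, 1.18 and 0.873 FPKM in control and 1.04 and 1.36 FPKM in IMQ libraries, with the IMQ values inside the control range. *Pax4* and *Pax6* had log2 fold changes of -0.76 and -0.62. Of 10 nutrient sensors, 9 were tested, with 0 called by edgeR. *Ffar2* alone had an unadjusted p under 0.05 and was called by DESeq2. *Ffar2* and *Ffar4*, receptors for short-chain and long-chain fatty acids, had log2 fold changes of -0.63 and -0.42.

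Receptors for the hormones (20 genes, 16 tested) had 0 calls with edgeR or DESeq2 in the small intestine and 2, *Gipr* and *Glp2r*, at an unadjusted p under 0.05. Their summed normalized count, of which *Glp2r* gave the largest part, did not overlap between the groups. It was 1150 to 1507 in control and 1657 to 1894 in IMQ libraries. The largest estimates were those of *Gipr* and *Gcgr*, with log2 fold changes of 1.11 and 0.92 at normalized counts of 10.2 to 64.5. The 3 peptidases that inactivate gut peptides had 0 calls with edgeR, with DESeq2 and without adjustment, with log2 fold changes of -0.50 for *Dpp4*, which cleaves GIP and GLP-1, and 0.25 for *Ece1*.

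**Figure D4:**
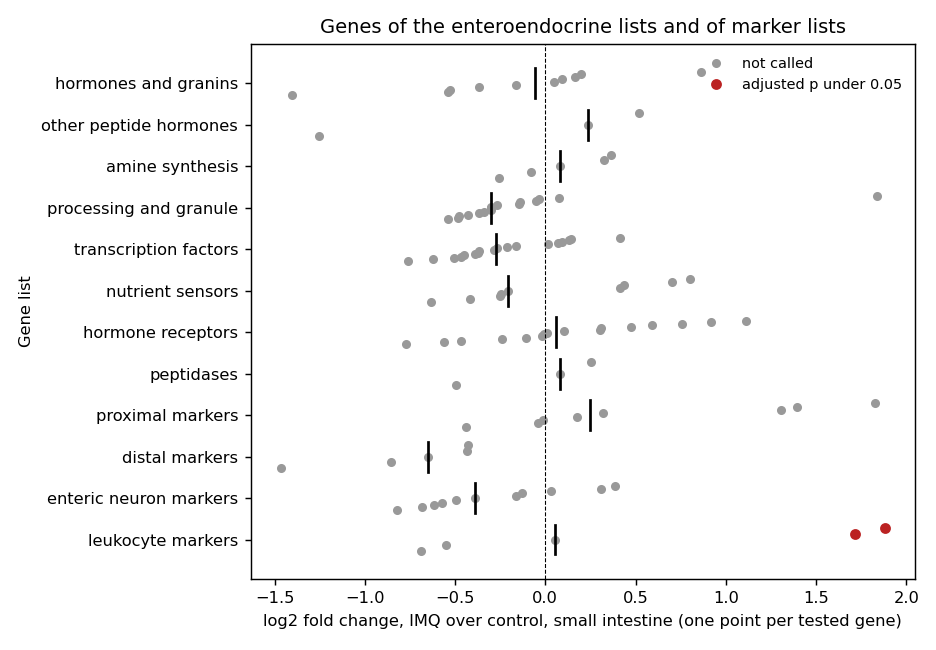
Log2 fold change of IMQ over control in the small intestine for each tested gene of the enteroendocrine lists and of selected marker lists (points), with the median of each list (bar). The leukocyte genes *Itgam* at 1.88 and *Ptprc* at 1.71 are the only ones called with edgeR among the genes shown.

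Other cell types of the tissue also differed between the groups. Among 6 leukocyte markers *Itgam* and *Ptprc* rose, with log2 fold changes of 1.88 and 1.71 (edgeR adjusted p = 0.000362 and 0.00124). The summed normalized count of the list was 12213 to 15898 in control and 26773 to 27119 in IMQ libraries, a difference that lay in these 2 genes. The T cell gene *Cd3e* was lower in both IMQ libraries (296 and 326 normalized counts) than in control (359 to 573) without being called, and *Cd79a* and *Lyz2* overlapped. The sum of 9 general epithelial markers overlapped, with 707690 to 1171200 in control and 707580 to 814470 in IMQ libraries. The sums did not overlap for goblet (348100 to 407980 against 313170 to 314670), Paneth (415210 to 497890 against 321390 to 328370) and stem cell markers (46639 to 58307 against 34760 to 36579), each lower with IMQ. *Fcgbp*, *Lyz1* and *Olfm4* gave the largest parts of these sums. Goblet *Fcgbp* and stem cell *Ascl2* overlapped between the groups. As single genes, 5 of 6 goblet, 4 of 4 Paneth and 3 of 4 stem cell markers were lower in both IMQ libraries than in any control library. Among all genes tested, 29.0% were separated in either direction. EdgeR called 0 genes of these 3 lists. At an unadjusted p under 0.05 there were 3 of 6 goblet, 3 of 4 Paneth and 2 of 4 stem cell genes, against 12.3% of all genes tested. Every estimate of the 3 lists was negative. DESeq2, which called 6.04% of all genes, called *Clca1*, *Itln1*, *Ang4* and *Olfm4*, all lower. Of the pancreatic, tuft cell, Merkel cell and skin markers that could be tested in the small intestine, 0 were called by either tool, and *Krt18* of the Merkel list alone had an unadjusted p under 0.05. Their part in the values of the hormone genes was not tested.

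The skin served as a contrast tissue, in which these genes are made, if at all, by Merkel cells and other rare cells. In the control libraries, all 10 genes were higher in small intestine than in skin (edgeR adjusted p = 0.00406 or less), against 24.1% of the 24527 genes tested that were higher in small intestine and 49.8% that differed in either direction. The log2 fold changes were 9.32 for *Gip*, 8.91 for *Chgb*, 8.49 for *Sst*, 8.18 for *Gcg* and 7.47 for *Nts*. *Chga*, *Tac1*, *Cck*, *Sct* and *Pyy* differed less, by 5.36, 5.19, 5.13, 5.10 and 4.32. Without skin control 2, 10 of the 10 genes were still called, and the log2 fold changes were 11.43 for *Chgb*, 10.17 for *Sst*, 5.82 for *Chga*, 5.73 for *Tac1*, 5.58 for *Cck*, 5.45 for *Pyy* and 4.78 for *Sct*. *Gcg*, *Gip* and *Nts* had counts in skin control 2 (24, 23 and 36) and 0 in the other control skin libraries. Against a floor of 3 counts in each of those libraries, control small intestine was at least 1873-fold higher for *Gip*, 890-fold for *Gcg* and 826-fold for *Nts*. The size of the difference, and the order of the genes by it, thus depended on skin control 2.

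In the IMQ libraries of the tissues, *Gcg*, *Sct*, *Gip*, *Pyy* and *Sst* were at 0 in all 3 skin libraries. Against a floor of 3 counts per library, the small intestine was at least 1657-fold higher for *Gip*, 546-fold for *Sst*, 508-fold for *Gcg*, 368-fold for *Sct* and 41.6-fold for *Pyy*.

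*Chga*, *Cck* and *Tac1* had counts in every skin library. *Chga* had 131, 161 and 58 counts in control and 120, 169 and 79 in IMQ skin, a log2 fold change of 0.18 (95% interval -0.97 to 1.32). *Cck* had 20, 38 and 25 counts in control and 11, 14 and 36 in IMQ skin, and *Tac1* had 11, 24 and 14 in control and 8, 20 and 11 in IMQ skin. The groups overlapped for each of the 3. With edgeR 0 of these 3 genes were called in skin, against a background of 6.74% of 20512 genes, and 0 of 3 had an unadjusted p under 0.05. DESeq2 called 0 as well. The log2 fold changes of *Cck* (-0.32) and *Tac1* (-0.21) turned to 0.11 and 0.31 without skin control 2.

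The other 7 genes had a count of 0 in at least 1 skin library and were not tested there. *Sct* had 16, 13 and 71 counts in control skin and 0 in each of the 3 IMQ libraries. Every control library thus exceeded every IMQ library. For *Sct*, and for *Pyy* below, the share of all genes separated in this way in skin was not counted. In normalized counts control skin was at 30.2 ± 27.5 (SD, n = 3), at least 9.49-fold higher than IMQ skin against a floor of 3 counts per library, and at least 12.0-fold higher without skin control 2. A two-sided exact permutation test of 3 against 3 libraries gave p = 0.1, the smallest value that this design allows. In fits that kept genes with zero counts, the edgeR adjusted p was 0.0520 with the edgeR expression filter and 0.0551 without a filter.

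*Pyy* had 14, 34 and 4 counts in control skin and 0 in each IMQ library. Control skin was at least 5.58-fold higher, or 2.54-fold without skin control 2, with an exact permutation p of 0.1. *Chgb* (6, 41 and 0 counts in control, 0, 0 and 3 in IMQ skin), *Sst* (3, 11 and 0 in control, 0 in IMQ skin), *Gcg* and *Gip* had their highest skin count in control 2. *Nts* was at 0 in control libraries 1 and 3, at 36 counts in control 2 and at 8, 10 and 38 counts in IMQ skin.

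**Figure D5:**
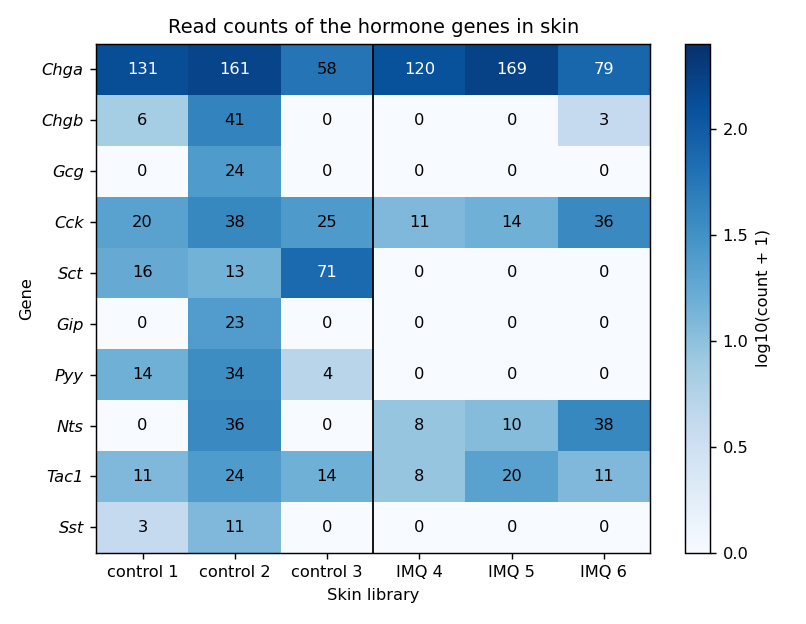
Read counts of the 10 hormone genes in each skin library, printed in the cells and shaded by log10 of the count plus 1. *Sct* and *Pyy* have counts in the 3 control libraries and 0 in the 3 IMQ libraries, and *Gcg* and *Gip* have counts in control 2 alone.

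The level of each gene in skin control 2 was also set against its control small intestine level. It was 0.523% for *Gip*, 0.600% for *Chgb*, 1.15% for *Gcg*, 1.40% for *Sct* and 1.86% for *Nts*, beside the median of 1.01% for the epithelial genes. It was 3.83% for *Chga*, 4.49% for *Cck* and 10.8% for *Pyy*. *Sct* was at 1.38% in skin control 1 and at 5.86% in skin control 3, libraries with a median of 0% for the epithelial genes. The part of intestinal transcripts in the hormone counts of skin control 2 was not tested. In normalized counts *Chga*, *Cck* and *Tac1* were each higher in control 2 (176, 41.4 and 26.2) than in the next skin library (174, 38.2 and 20.6).

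Among the pathway lists in skin, *Hdc*, *Ptprn* and *Tacr1* rose with IMQ in the edgeR test. *Hdc*, which makes histamine also in mast cells and other leukocytes, had a log2 fold change of 2.60 (edgeR adjusted p = 0.00996), *Tacr1*, the receptor for substance P, of 1.72 (0.0182) and *Ptprn*, a granule membrane protein, of 1.31 (0.0380). DESeq2, which called 14.8% of all genes in skin, called *Hdc* and *Tph1* of the amine list (both higher), 3 higher and 2 lower granule genes (*Cpe*, *Ptprn*, *Scg5* and *Cplx2*, *Scg3*) and *Tacr1* (higher) and *Sstr2* (lower) among the receptors. The summed normalized count of the leukocyte list was 16972 to 24195 in control and 122490 to 125990 in IMQ skin. In the skin, 7 of 9 Merkel cell markers were tested and 0 were called by edgeR, with 4 at an unadjusted p under 0.05 (*Krt8*, *Krt18*, *Krt20* and *Sox2*; 23.2% of all genes) and 7 of 7 estimates negative. DESeq2 called 3 of them, *Krt8*, *Sox2* and *Krt20*, all lower. *Krt8*, *Krt18* and *Krt20* are keratins of intestinal epithelium as well, whose transcripts skin control 2 held. The part of these markers in the skin values was not tested.

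The effect of IMQ was compared between the tissues in 1 model of all 11 libraries for the genes with counts in each of them. Of *Chga*, *Cck* and *Tac1*, 0 of 3 differed with edgeR, against a background of 2.55% of 18108 genes, and 0 of 3 had an unadjusted p under 0.05, against 16.9%. *Cck* had the largest difference, 1.18 on the log2 scale toward the small intestine (95% interval -0.56 to 2.92, edgeR adjusted p = 0.501). The intervals left room for differences of more than 2-fold in either direction for *Tac1* (-1.39 to 1.08) and for *Chga* in the negative direction (-1.60 to 0.93). When genes with zero counts were kept, *Sct* was called, with an adjusted p of 0.0492 without a filter and 0.0526, not called, with the edgeR expression filter.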

How the data were processed

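Reads of 11 mouse libraries (skin and small intestine, IMQ or vehicle) were analyzed. RNA was depleted of DNA, libraries were prepared with a stranded mRNA kit, and reads were trimmed with Trimmomatic, aligned to mm10 with HISAT2 2.1.0 and quantified with StringTie 2.1.3b by the authors. The deposited table holds whole-number read counts without normalization. It also holds the FPKM computed by the authors, scaled by gene length and library size, and their deposited TPM, which retains no depth and so was not tested. The counting tool, strand handling and treatment of multiply mapped reads are not given in the sources used here. No annotated gene overlapped the 10 genes in GENCODE M21, which also gave their strands. The positions of the genes are from RefSeq.

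Counts were tested with edgeR 4.0.16 in R 4.3.3 (quasi-likelihood test, relative log expression scaling, Benjamini-Hochberg adjusted p under 0.05). Genes with 0 counts in 1 or more libraries of the tissue were left out, and the control tissue contrast needed 10 counts in sum. The method of the study, DESeq2 (1.42.0), was an alternative, as were limma 3.58.1 on voom weights and on log2(FPKM + 0.01) and log2(FPKM + 1), other scalings and filters, and fits without each library. Normalized counts were brought to the average library size. Lists and members were chosen with earlier results of these data known. Named genes were the 10 members and, per list, up to 5 called genes and the 2 with the largest change at a mean normalized count of at least 20. Others, such as *Fabp1*, *Neurog3*, markers at 0 and list genes singled out by 1 tool or in skin, were named after their values were seen. Scripts were tested on simulated data. Fold changes against 0 use a floor of 3 counts per library, which covers counting error only. Replicate pairs differed beyond sampling noise (chi-square per degree of freedom 34.0 to 231), and the biological coefficient of variation was 0.215 in small intestine and 0.245 in skin.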

Additional observations from a re-analysis of the deposited data

How the results depend on the processing

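No paired analysis was possible because no source states which libraries came from the same mouse. The contrasts between tissues treated skin and small intestine libraries as independent. With DESeq2 the calls rose to 1206 in small intestine, 3030 in skin and 1281 for the interaction of tissue and treatment, with 1 of the hormone genes, *Pyy*, called in the small intestine. Limma on log2(FPKM + 1) gave 894 calls in skin. Without a filter on low counts the interaction had 301 calls, 1 of them a hormone gene, *Sct*. The mean *Gcg* level of IMQ small intestine was 19.987 on counts per kilobase. With upper-quartile scaling *Sst* turned to -0.0093 on the log2 scale.

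Leaving out 1 library at a time gave 294 (without IMQ 10) to 801 (without control 7) calls in small intestine, with 0 to 1 hormone genes called (*Cck* without control 7, *Nts* without IMQ 10). It gave 258 (without IMQ 5) to 2521 (without control 2) in skin, and 144 (without small intestine IMQ 10) to 1072 (without skin control 2) for the interaction. In the small intestine, log2 fold changes whose sign turned ran from -0.34 to 0.0251 for *Chga*, -0.0326 to 0.51 for *Chgb*, -0.11 to 0.38 for *Gip*, -1.39 to 0.0043 for *Nts*, -0.21 to 0.36 for *Sst*, -1.81 to 5.28 for *Aqp8*, -1.26 to 0.12 for *Acta2*, -1.60 to 0.34 for *Actg2* and -0.68 to 0.59 for *Pou2f3*. In skin they ran from -0.19 to 0.62 for *Chga*, -1.01 to 0.11 for *Cck* and -0.63 to 0.31 for *Tac1*, and for the interaction from -0.79 to 0.0494 for *Chga* and -0.69 to 0.27 for *Tac1*. The cause was not tested. With IMQ 10 or 11 left out, the lone IMQ library is assumed to vary like the controls. The contrast of control tissues kept 10 of 10 hormone genes called in every fit run. With 3 and 2 libraries, depth limits these comparisons less than the spread between libraries, except in skin, where 7 of the genes had libraries with 0 counts.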
